A study of Schizosaccharomyces pombe with 21 samples.

Results

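A set of 41 protein-coding genes of fission yeast (*Schizosaccharomyces pombe*) held at least 0.7 times their starting mRNA level at 4 h and 8 h of phosphate starvation and stood at or under 0.5 times from 24 h on. At 8 h, 33 of them were already below their starting level, and the median of 4799 protein-coding genes stood at 0.861 times. Among them were the genes for the large subunit of ribonucleotide reductase (*cdc22*), the mitotic activator Slp1, alpha tubulin (*nda2*), several enzymes of protein glycosylation in the endoplasmic reticulum, and transporters and enzymes of amino acid and nucleobase use. The members were chosen by measured values. A gene entered when its identifier did not mark an RNA gene, its mean normalised count at 0 h was at least 100, its means at 4 h and 8 h were each at least 0.7 times the 0 h mean, and its means at 24, 36 and 48 h were each at most 0.5 times the 0 h mean. These limits were met by 46 of the 6988 genes listed, and 5 of the 46 were left out by name, among them SPBC359.01, *cdc18* and *cdt1*. A further 4 genes named for leaving out (*mik1*, *adg1*, *adg2* and *eng1*) did not meet them. The level at 12 h was the only time that the choice did not use.

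All cells were labelled *ecl123*Δ, so the 0 h controls carried the same 3 deletions as the starved cells. The study lists this triple deletion as strain ASY136, h- *ecl1*Δ::hygMX *ecl2*Δ::natMX *ecl3*Δ::kanMX. By the same list, all its strains also carry mutant alleles of *leu1*, *ura4*, *his3* and *ade6*. Poly(A)+ RNA was sequenced from logarithmic cultures in YES, a yeast extract medium (0 h), and from cells taken early (4, 8 and 12 h) or late (24, 36 and 48 h) after their move into a phosphate-free defined medium, ePMGT(-PO4), which holds glutamate and thiamine. There were 3 biological replicates per time, 21 samples in all. The loss of phosphate and the change of medium cannot be told apart here, and no wild-type cells are among the samples.

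The mean normalised count of the deleted gene *ecl3* was between 0 and 3.67 at the 7 times. Those of *ecl1* and *ecl2* were between 1472 and 4095. By the study's methods the cassettes took the place of the open reading frames, which make up 243 of 820 exon bases of *ecl1* and 255 of 1509 of *ecl2* in RefSeq. Which part of these exons the reads came from was not tested, so only *ecl3* checks the labels here. Libraries held about 18010000 to 26760000 counted reads, estimated from the summed means and the size factors. Over the 4799 protein-coding genes with a 0 h mean of at least 100, the median ratio to 0 h was 0.958 at 4 h and between 0.833 and 0.875 at the later times, which is a shift of -0.22 on the log2 scale at 8 h and of -0.26 at 48 h. All ratios below are ratios of the deposited means, without correction for that shift, and they carry no test.

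Fission yeast cells that run out of phosphate divide a few more times and then stop in G0, a non-dividing state in which they can survive and resume growth. A dividing cell needs deoxynucleotides for S phase, a spindle built from tubulin, the anaphase-promoting complex to separate its chromosomes, and new membrane, cell wall and glycoproteins for the daughter cells. In this yeast, genes for S phase are switched on by the MBF complex, which binds the MCB box ACGCGT.

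Promoter sequence is shown for this box because MBF drives genes used in dividing cells, and because its known targets *cdc18* and *cdt1* were left out by name. In a list of 18 MBF targets of G1/S, *cdc22* was the 1 member. At or under 0.5 times the 0 h mean at all late times were 7 of the 18, and 4 of these had already been under 0.7 times at 4 or 8 h. Over all 4799 protein-coding genes with a 0 h mean of at least 100, 822 were, 776 of them already under 0.7 times at 4 or 8 h. The 48 h ratios in the list ran from 0.0565 (*mik1*) to 1.35 (*suc22*). Windows of 250 bases before to 50 bases after the annotated gene start were read from the RefSeq genome of assembly ASM294v3, and both strands were searched. The MCB box occurred in 5 of 41 windows (12.2%) and in 3.17% of the windows of all 4799 genes. Its 6 matches in *cdc22*, *ams2*, *rid1*, *erj5* and *ypf1* are printed 5′ to 3′ on the gene's strand, with the box in capitals.
*cdc22* (chromosome I, plus strand, box starting 62 bases before the gene start): tatattagcgtgACGCGTctgaacgcgttt
*cdc22* (chromosome I, plus strand, box starting 52 bases before the gene start): tgacgcgtctgaACGCGTttttcatttact
*ams2* (chromosome III, plus strand, 140 bases before): acgcgataattcACGCGTtatttttttaaa
*rid1* (chromosome II, plus strand, 53 bases before): cttgttcctcggACGCGTcagcgtgccatt
*erj5* (chromosome I, plus strand, 21 bases before): ataggttagcgaACGCGTatcacccaagaa
*ypf1* (chromosome I, plus strand, 7 bases after): atactattgcaaACGCGTgaggaaatattt

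A match is a run of letters and not a measured binding site. Among the 776 other protein-coding genes at or under 0.5 times the 0 h mean at 24, 36 and 48 h, which had already passed under 0.7 at 4 h or 8 h, 3.99% of windows held the MCB box. For 8 other motifs the members were nearer to their share in all windows or rarer. The forkhead box GTAAACA was in 6 members (14.6%, against 16.3% of all), the pombe cell cycle box GCAACG in 5 (12.2%, against 8.71%), the Ste11 core CTTTGTT in 4 (9.76%, against 10.1%), the stress box CCCCT in 3 (7.32%, against 10.4%) and CCAAT in 10 (24.4%, against 42.0%). HomolD (CAGTCACA, 2.85% of all) and the Atf1 box TGACGT (5.81% of all) were each in 1 member, and the CSL box GTGGGAA (1.73% of all) was in 0. In *nda2* the forkhead and Ste11 matches overlapped, and no other matches of these motifs in the members did.

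The rule was met by a small share of the genes that were low late. Of 823 genes at or under 0.5 times the 0 h mean at all 3 late times, 609 were already under 0.7 times at both 4 h and 8 h, 167 at 8 h only and 1 at 4 h only. The 46 genes that held at least 0.7 times at both early times made up 5.59%. Nearest to the late limit from inside were *abc4*, *dhm2* and *swd2*, whose highest late ratios were 0.4995, 0.4993 and 0.4988, and nearest from outside were *alg1* at 0.5015, *gas1* at 0.5047 and *mss51* at 0.5049. At the early limit, *mpd1* at 0.7023, *nda2* at 0.7059 and *erj5* at 0.7076 stood inside, and *psu1* at 0.6973, *nrm1* at 0.6966 and *dpp1* at 0.696 outside. The lowest 0 h means among the members were those of *atf31* (162.9), *alr2* (324.3) and *fet4* (335.7), and the nearest gene outside was *fah1* (82.55). When the means were rescaled so that the median protein-coding gene stayed level, 34 genes met the rule, of which 18 were among the 41, and when they were rescaled to equal totals 56 met it, of which 16 were among the 41. On those scales no member exceeded 0.599 or 0.606 times its 0 h value at any late time, respectively. The genes that met the rule on all 3 scales were SPAC12G12.16c, *mpd1*, *cdc22*, *ypf1*, *erj5*, SPAC57A10.07, *pan6*, *otg1*, *slp1*, *gpt2*, *zrg17*, *alr2*, *aat1*, *gal1*, *adg3* and SPCC965.14c.

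The median member ratio to 0 h was 1.02 at 4 h, 0.766 at 8 h, 0.673 at 12 h, 0.417 at 24 h, 0.402 at 36 h and 0.357 at 48 h. Of these, only the 12 h mean was not used by the rule. It shares its 0 h libraries with all the others, and it lies between 8 h and 24 h means that the rule bounded. In the plot of ratios by time, most members sit on or above the median gene at 4 h and all sit under it from 24 h on. At 4 h, 21 members were above their 0 h mean, at 8 h 8 members, at 12 h 4 members (*cfh4*, SPBC800.11, *rid1* and *atf31*), and from 24 h on 0 members, as the rule requires. The median ratio over all 4799 genes was 0.958 at 4 h, 0.861 at 8 h and 0.870 at 12 h. The share of all genes above their 0 h mean at these times was not counted, so nothing is read from these counts of members.

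**Figure D1:**
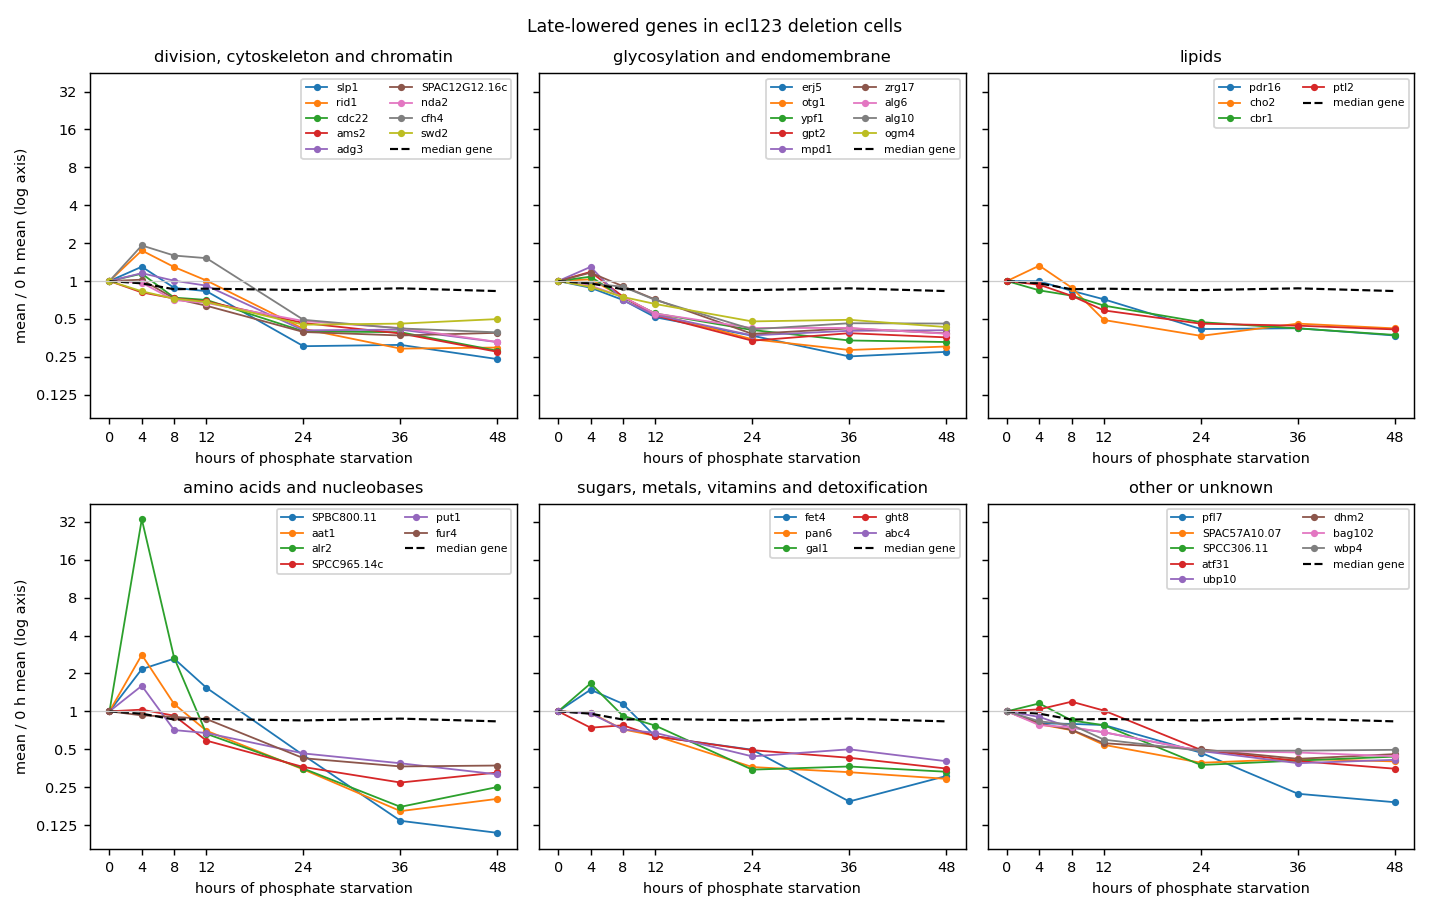
Mean normalised count at each time divided by the 0 h mean (vertical log axis, no unit) against hours of phosphate starvation, with 1 line per gene in 6 groups by the known role of the product and the median of 4799 protein-coding genes dashed. The members lie at 0.702 to 2.66 times the 0 h mean at 8 h and at 0.108 to 0.499 times at 48 h, and *alr2* stands at 33.55 times at 4 h.

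The rule placed the 8 h mean at 0.7 or more and the 24 h mean at 0.5 or less, so a fall from 8 to 24 h was fixed by the choice of members, and the steps within it are given as a description only. All 41 members were lower at 12 h than at 8 h and lower again at 24 h than at 12 h. Over all 4799 genes, the 12 h mean was under the 8 h mean in 42.3% and the 24 h mean under the 12 h mean in 49.6%, and the median ratios of these steps were 1.02 and 1.00, against 0.833 and 0.631 in the members. Among the steps from 4 h on, the interval from 12 to 24 h held the largest drop on the log2 scale for 28 members. Intervals from 4 to 8 h and from 8 to 12 h held it for 5 each, and the interval from 24 to 36 h for *erj5*, *fet4* and *pfl7*. These intervals differ in length, and the drops were not divided by time. The step from 0 to 4 h was not compared, in which *ght8* fell to 0.742 times, against 0.775 times from 12 to 24 h. At least 1.5-fold lower at 24 h than at 12 h were 23 members, where the share of all genes was 3.33%.

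At 12 h, 26 of 41 members were at or under 0.7 times the 0 h mean, and their ratios ranged from 0.490 (*cho2*) to 1.54 (SPBC800.11). The background was 36.3% of all 4799 protein-coding genes, and 3.95% of the 2886 that, like the members, held 0.7 times or more at 4 and 8 h. The count was 12 after rescaling to the median gene, where the backgrounds for the same 4799 and 2886 genes were 28.5% and 0.589%. It was 3 after rescaling to equal totals, with backgrounds of 22.3% and 0.104%. Both backgrounds include the members, which made up 26 of the 114 genes called among the 2886. After rescaling to the median gene they made up 12 of 17, and after rescaling to equal totals 3 of 3. Unlike the members, the 2886 were not chosen to be low at 24 h, so these counts are given as a description only. At least 1.5-fold lower at 12 h than at 8 h were 6 members (*cho2*, *alr2*, *aat1*, SPBC800.11, *fet4* and SPCC965.14c), where the share of all genes was 0.542%.

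**Figure D2:**
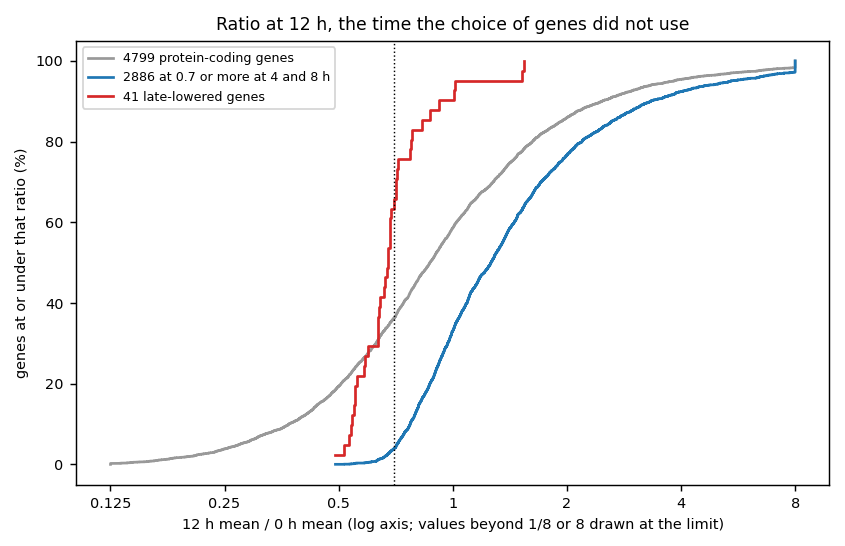
Percentage of genes (vertical axis) at or under each ratio of the 12 h mean to the 0 h mean (horizontal log axis), for 4799 protein-coding genes, for the 2886 of them at 0.7 or more at 4 and 8 h, and for the 41 members. At the dotted line of 0.7 the curves stand at 36.3%, 3.95% and 63.4%. The 4799 and the 2886 genes include the members.

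Values of single libraries could be rebuilt from many, but not all, of the means under 1000. A mean is a sum of 3 whole read counts, each divided by its library's size factor, and it is given to 10 digits, so a low mean allows a single set of counts. Of the means from 600 to 1000 of these protein-coding genes, only 33.1% at 0 h and 45.0% at 8 h allowed a single set, against 99.7% or more at the other times. Rebuilding gave the 3 library values for 119 of the 287 member means, in 25 of the 41 genes, without saying which replicate each belongs to. The standard deviation (SD) over the 3 libraries was a median of 8.28% of the mean in the members. Over all rebuilt genes with means of 300 to 1000 the median was 12.7% at 24 h and between 5.62% and 7.12% at the other 6 times. At 24 h the library with the lowest size factor stood apart, differing by more than 1.5-fold from the mean of the other 2 in 13.5% of 1033 genes, and the library with the highest size factor did so in 8.52%. The third 24 h library did so in 2.03%, and libraries of the other times in 0.0907% to 2.53%. Without the library of lowest size factor, 22 of the 25 members rebuilt at 24 h were still at or under 0.5 times the 0 h mean, and *atf31* stood at 0.554, *swd2* at 0.547 and *ams2* at 0.5003. Without the one of highest size factor 21 were, and *dhm2*, *atf31*, *pfl7* and *fet4* were not. All 25 were lower at 24 h than at 12 h without each 24 h library in turn. The part of these libraries in the 24 h means of the other 16 members was not tested.

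The first group comprised 9 genes of division, the cytoskeleton and chromatin. Their 48 h ratios ran from 0.240 (*slp1*) to 0.499 (*swd2*), and for all 9 the largest drop fell between 12 and 24 h. At 4 h, 6 of them were above the 0 h mean, against 21 of all 41 members. The share of all genes was not counted, so nothing is read from this count. *cdc22*, the large subunit of the reductase that makes deoxynucleotides, had mean normalised counts of 14736, 16859, 10884, 10429, 5882, 5779 and 4118 at the 7 times from 0 h to 48 h. It was therefore 3.58-fold lower at 48 h than at 0 h, with steps down between 4 and 8 h, between 12 and 24 h and between 36 and 48 h. The last of these, to 0.713 times the 36 h mean, was the lowest 48 h to 36 h ratio of any member. Its partner *suc22*, the small subunit, did not share that course and stood at 0.986 times the 0 h mean at 12 h and at 1.35 times at 48 h. *spd1*, which encodes an inhibitor protein of the same enzyme, was at 4.59 times at 12 h and 6.26 times at 48 h.

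*slp1*, the fission yeast Cdc20 that activates the anaphase-promoting complex in mitosis, had means of 2973, 3863, 2628, 2469, 903, 925 and 713 in the same order of times. The 3 libraries at 24 h had 845, 901 and 964 normalised counts, and those at 48 h 613, 718 and 808, so the late libraries lay far under the 12 h mean and the 48 h libraries under all of those at 24 h. The APC/C activator of G1, *srw1*, was at 1.51 times its 0 h mean at 12 h and 1.72 times at 48 h, and the B-type cyclin *cdc13* was at 0.590 times by 8 h and at 0.483 times at 48 h. *nda2*, the essential alpha tubulin, had means of 12173, 11808, 8593, 8146, 5862, 5154 and 3996. The other alpha tubulin gene, *atb2*, was at 0.436 times already at 8 h and at 0.219 times at 48 h, the beta tubulin *nda3* at 0.685 and 0.448 times, and the gamma tubulin *gtb1* at 0.712 and 0.551 times. Of the 3 genes for the alpha and beta subunits of microtubules, *nda2* alone met the rule. At 24 h *nda3* was at 0.546 times its 0 h mean.

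Among the genes of septum and cell wall remodelling, *adg3*, a beta-glucosidase, had means of 7628, 8813, 7673, 7010, 3099, 3137 and 2496. *cfh4*, which encodes a chitin synthase regulatory factor, had 4756, 9118, 7583, 7225, 2342, 2000 and 1861. It was thus 1.52 times its 0 h mean at 12 h and 3.09-fold lower at 24 h than at 12 h.

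*rid1*, a GTPase-binding protein, had means of 1881, 3288, 2430, 1898, 785, 547 and 558. Its libraries at 24 h (767, 768 and 820 normalised counts) lay above all of those at 36 h (489, 550 and 602) and at 48 h (534, 543 and 595). *ams2*, a GATA-type factor with roles at centromeres and histone genes, had 2142, 1740, 1557, 1475, 995, 821 and 587. Its 24 h libraries were 840, 894 and 1249, its 48 h libraries 551, 602 and 608, and the ranges did not overlap. In a list of 10 histone genes the median 48 h ratio was 1.09, and 0 were at or under 0.5 times at all late times, against 822 of all 4799 genes. The list was mixed at 48 h, with 3 genes at 2 times or more and 1, *hht1*, at or under 0.5 times. *hht1* was at 0.515 times at 24 h and 0.455 times at 48 h.

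SPAC12G12.16c, annotated as a Fen1-like nuclease of the XP-G family, had means of 921, 943, 669, 586, 363, 340 and 357. *swd2*, a subunit of the Set1 complex that methylates histone H3, had 639, 530, 463, 435, 287, 293 and 319, and its 3 normalised counts were 607, 649 and 659 in the 0 h libraries, 422, 441 and 442 in those of 12 h and 304, 322 and 330 in those of 48 h. These 3 sets did not overlap. At 24 h its libraries were 164, 342 and 356, of which the lowest came from the library of lowest size factor. Of the other measured subunits of the complex, *set1*, *swd1*, *swd3*, *ash2*, *shg1* and *sdc1*, the 48 h ratios ran from 0.245 (*ash2*) to 0.854 (*shg1*).

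Protein glycosylation and the endomembrane system gave 9 genes. Their median 12 h ratio, 0.552, was the lowest of the 6 groups, with a range of 0.516 to 0.714. On the deposited scale, 7 of the 9 were at or under 0.7 times at 12 h, against 26 of all 41 members and 36.3% of all 4799 genes. The dolichol pathway builds a sugar chain on a lipid of the endoplasmic reticulum before it is moved to proteins, and 3 members act on it. *gpt2*, the enzyme that starts the chain, had means of 1601, 1892, 1206, 853, 538, 617 and 571. *alg6*, which adds a glucose, had 1402, 1290, 1050, 774, 594, 595 and 535. *alg10*, which adds the last glucose, had 522, 499, 471, 370, 216, 242 and 240.

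For *alg10* the normalised counts were 459, 530 and 578 in the 0 h libraries, 465, 510 and 521 in those of 4 h, 423, 488 and 502 in those of 8 h, 332, 388 and 391 in those of 12 h and 235, 241 and 244 in those of 48 h. The 0, 4 and 8 h libraries overlapped one another, the 12 h libraries lay under all of them, and the 48 h libraries lay under those of 12 h. *alg1*, an earlier mannosyltransferase of the same pathway, stood just outside the late limit, at 0.5015. A list of 46 genes covered translocation into the endoplasmic reticulum, glycosylation and GPI anchors. At or under 0.5 times at all late times were 17 of the 46, against 822 of all 4799 genes. Of the 17, 15 had already been under 0.7 times at 4 or 8 h. The median ratio of the list was 0.459 at 48 h, against 0.833 over all 4799 genes.

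*erj5*, a DnaJ chaperone partner of the endoplasmic reticulum, went lowest in this group, with means of 4315, 3816, 3053, 2225, 1590, 1088 and 1182. *otg1*, an alpha-1,3-galactosyltransferase, had 1731, 1788, 1294, 952, 598, 491 and 523. *ypf1*, an intramembrane aspartyl protease of the perinuclear endoplasmic reticulum, had 1315, 1424, 971, 727, 537, 444 and 431. Its normalised counts were 935, 980 and 997 in the 8 h libraries, 650, 749 and 783 in those of 12 h and 452, 571 and 588 in those of 24 h, with no overlap from one time to the next. *mpd1*, of the thioredoxin family, had 788, 1020, 553, 424, 292, 317 and 320, and its libraries of 520, 554 and 586 at 8 h lay above those of 396, 416 and 461 at 12 h.

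*ogm4*, an O-mannosyltransferase, had means of 3838, 3451, 2870, 2523, 1835, 1889 and 1655, with its highest late ratio, 0.492, at 36 h. *zrg17*, a subunit of the zinc importer of the Golgi, had 1300, 1515, 1183, 929, 495, 548 and 499. Its partner subunit *cis4* was at 0.772 times at 12 h, where *zrg17* was at 0.714 times, and at 0.660 times at 48 h, where *zrg17* was at 0.384 times.

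The 4 lipid genes were *cho2*, *ptl2*, *pdr16* and *cbr1*. *cho2*, which catalyses the first methylation from phosphatidylethanolamine towards phosphatidylcholine, had means of 8171, 10827, 7245, 4006, 2998, 3751 and 3438. It had the lowest 12 h ratio of all 41 members (0.490), its largest drop came between 8 and 12 h, and it was lowest at 24 h. *cho1*, the enzyme of the later methylations, stood at 2.90 times its 0 h mean at 4 h, 0.921 times at 12 h and 0.829 times at 48 h, so both genes were highest at 4 h and well under that level at 12 h. *ptl2*, a triacylglycerol lipase, had 6659, 6224, 5082, 3892, 3054, 2944 and 2749, while *ptl1* and *ptl3* were already at 0.665 and 0.498 times at 4 h and ended at 0.495 and 0.290 times. *pdr16*, of the Sec14 family of lipid transfer proteins, had 11136, 11076, 9320, 7971, 4629, 4700 and 4111, and *cbr1*, cytochrome b5 reductase, had 6271, 5286, 4806, 4001, 2956, 2637 and 2340. In a list of 31 genes of fatty acid and lipid synthesis, 9 were at or under 0.5 times at all late times, against 822 of all 4799 genes. *cho2* was the only one of the 9 that held 0.7 times early.

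The 6 genes for amino acids and nucleobases included the sharpest early peaks and the lowest late levels. SPBC800.11, annotated as a nucleoside hydrolase that prefers inosine and uridine, had means of 559, 1210, 1464, 860, 250, 75.5 and 60.6. Its normalised counts were 509, 568 and 600 in the 0 h libraries, 812, 869 and 898 in those of 12 h, 198, 228 and 325 in those of 24 h, 55.6, 59.0 and 112 in those of 36 h and 44.2, 52.9 and 84.6 in those of 48 h. All 12 h libraries lay above all 0 h libraries, the 24 h libraries under both, and the 36 and 48 h libraries overlapped each other under those of 24 h. Between the peak at 8 h and 48 h the mRNA crossed from 2.62 times to 0.108 times the 0 h mean, the lowest ratio of any member.

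*alr2*, an alanine racemase, had means of 324, 10882, 864, 215, 114, 56.6 and 81.3, a peak of 33.55 times at 4 h and a level 133.8-fold under that peak at 48 h. Its normalised counts were 284, 288 and 401 in the 0 h libraries, 793, 881 and 918 in those of 8 h, 156, 197 and 291 in those of 12 h, 51.2, 114 and 176 in those of 24 h and 53.0, 84.9 and 106 in those of 48 h. The 12 h libraries overlapped those of 0 h, since the highest at 12 h exceeded the lowest at 0 h, and the 24 and 48 h libraries overlapped each other. The SD at 24 h was 54.7% of the mean, the highest of any rebuilt member value. *aat1*, an amino acid permease, had 2438, 6855, 2787, 1709, 842, 393 and 492. Its libraries were 634, 869 and 1025 at 24 h and 424, 430 and 623 at 48 h, which do not overlap.

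The genes *alr2*, *aat1* and *pfl7* are consecutive on chromosome II, and the amino acid permease gene SPBC359.01 precedes *alr2* in identifier order. *pfl7*, a glycoprotein of the DIPSY family, had means of 443, 356, 352, 345, 208, 98.2 and 84.0. Its normalised counts were 424, 443 and 462 in the 0 h libraries, 311, 342 and 382 in those of 12 h, 174, 200 and 249 in those of 24 h, 84.2, 99.1 and 111 in those of 36 h and 68.4, 74.4 and 109 in those of 48 h. No 2 of the sets at 0, 12, 24 and 36 h overlapped, and those of 36 and 48 h did. SPBC359.01 had means of 1063, 1589, 783, 633, 185, 68.3 and 76.7. The 4 neighbours stood at 0.0642 to 0.251 times the 0 h mean at 36 and 48 h, where the limits that all 4 met allowed at most 0.5 times. Their 4 h ratios ran from 0.803 (*pfl7*) to 33.55 (*alr2*). An antisense lncRNA that overlaps *alr2*, SPNCRNA.1309, had means of 227, 196, 244, 131, 33.3, 11.9 and 44.3, without a peak at 4 h.

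*put1*, proline dehydrogenase, had means of 10824, 17269, 7684, 7282, 5014, 4188 and 3420. The overlapping gene on the same strand, SPCC70.04c, went from 148 at 0 h to 1308 at 48 h and an antisense lncRNA from 194 to 1052, so the lower *put1* values were not shared by either. *fur4*, the uracil transporter of the plasma membrane, was nearly level to 12 h, with 2906, 2700, 2628 and 2523, and stood at 1234, 1061 and 1079 at 24, 36 and 48 h. SPCC965.14c, annotated as a cytosine deaminase, had 811, 835, 749, 474, 293, 220 and 265. In a list of 12 amino acid permeases the median ratio was 1.37 at 4 h and 0.779 at 48 h. At or under 0.5 times at all late times were 3 of the 12, against 822 of all 4799 genes, and *aat1* was the 1 member among the 3.

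**Figure D3:**
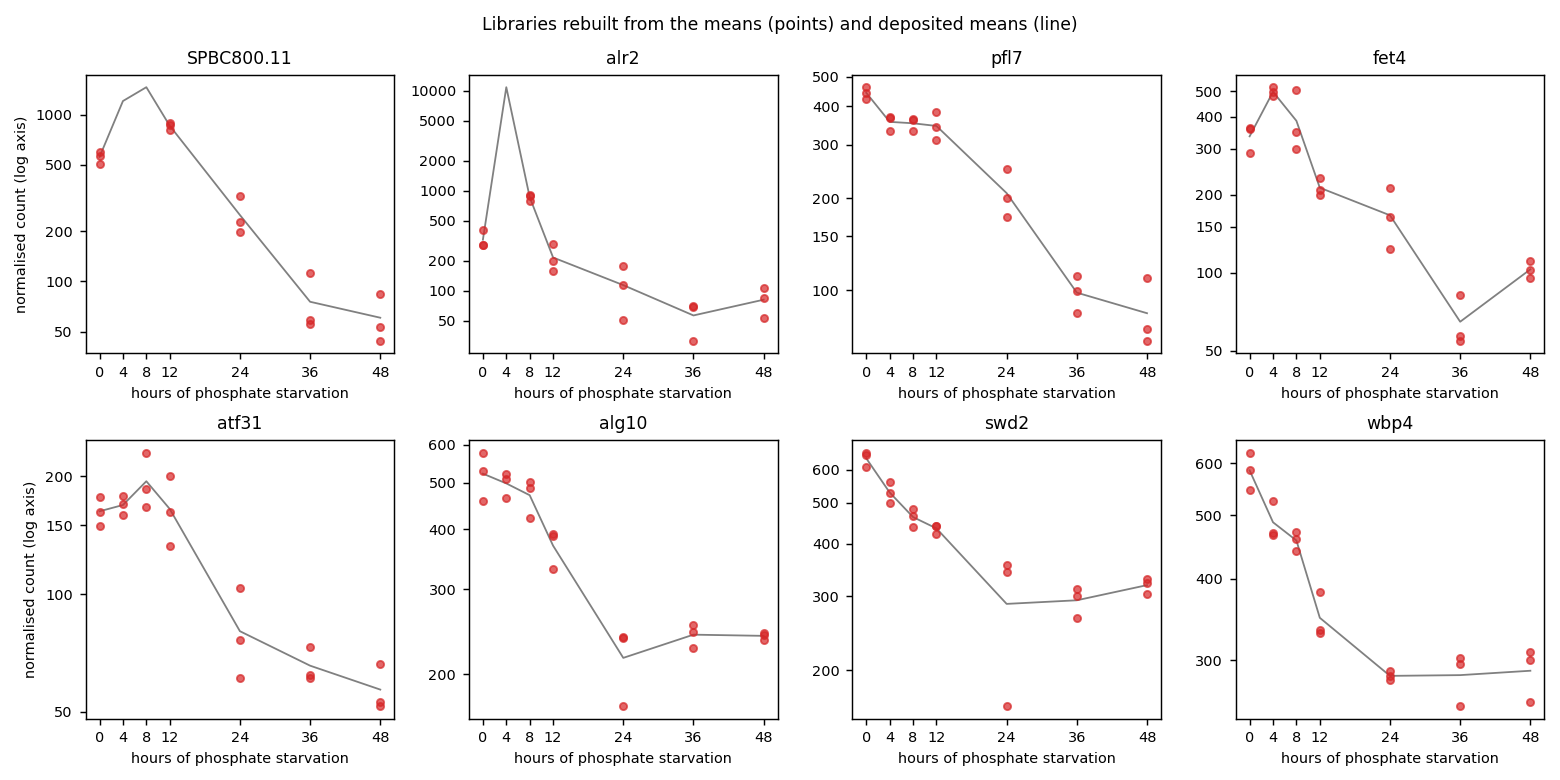
Normalised counts (vertical log axes, with a separate scale per gene) of 8 members whose means were low enough to rebuild single libraries, against hours of phosphate starvation; each point is 1 library and the line joins the deposited means. Points are missing where a mean of *alr2* or SPBC800.11 exceeded 1000, and the low 24 h point of *swd2* (164) comes from the library of lowest size factor.

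The 5 genes for sugars, metals, vitamins and detoxification were *ght8*, *gal1*, *fet4*, *abc4* and *pan6*. *ght8*, a hexose transporter, was the most abundant member, with means of 28279, 20972, 21915, 17936, 13902, 12097 and 9940. Of the 5 hexose transporter genes with a 0 h mean of at least 100, it and 1 other were at or under 0.5 times at all late times. Over all genes 822 of 4799 were. *gal1*, galactokinase, had 1678, 2795, 1547, 1294, 578, 612 and 556. In the galactose cluster, *gal7* also fell late, from 3.34 times its 0 h mean at 12 h to 2.63 times at 24 h and 1.47 times at 48 h. Unlike *gal1* it stayed above its 0 h mean. *gal10* did not share the late fall, at 0.744 times at 12 h and 0.941 times at 48 h.

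*fet4*, an iron and zinc transporter, had means of 336, 499, 385, 213, 166, 64.6 and 103. Its normalised counts were 289, 358 and 360 in the 0 h libraries, 480, 496 and 519 in those of 4 h, 199, 207 and 231 in those of 12 h, 54.6, 57.1 and 82.0 in those of 36 h and 95.0, 103 and 111 in those of 48 h. The 4 h libraries lay above those of 0 h, the 12 h libraries under them, and the 36 h libraries under those of 48 h. *abc4*, a vacuolar transporter of glutathione conjugates, had 7783, 7488, 5596, 5251, 3416, 3887 and 3126. *pan6*, pantoate-beta-alanine ligase of the pantothenate pathway, had 2015, 1967, 1448, 1291, 728, 662 and 586, and an overlapping gene on the same strand, SPAC5H10.09c, went from 353 to 63.4.

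**Figure D4:**
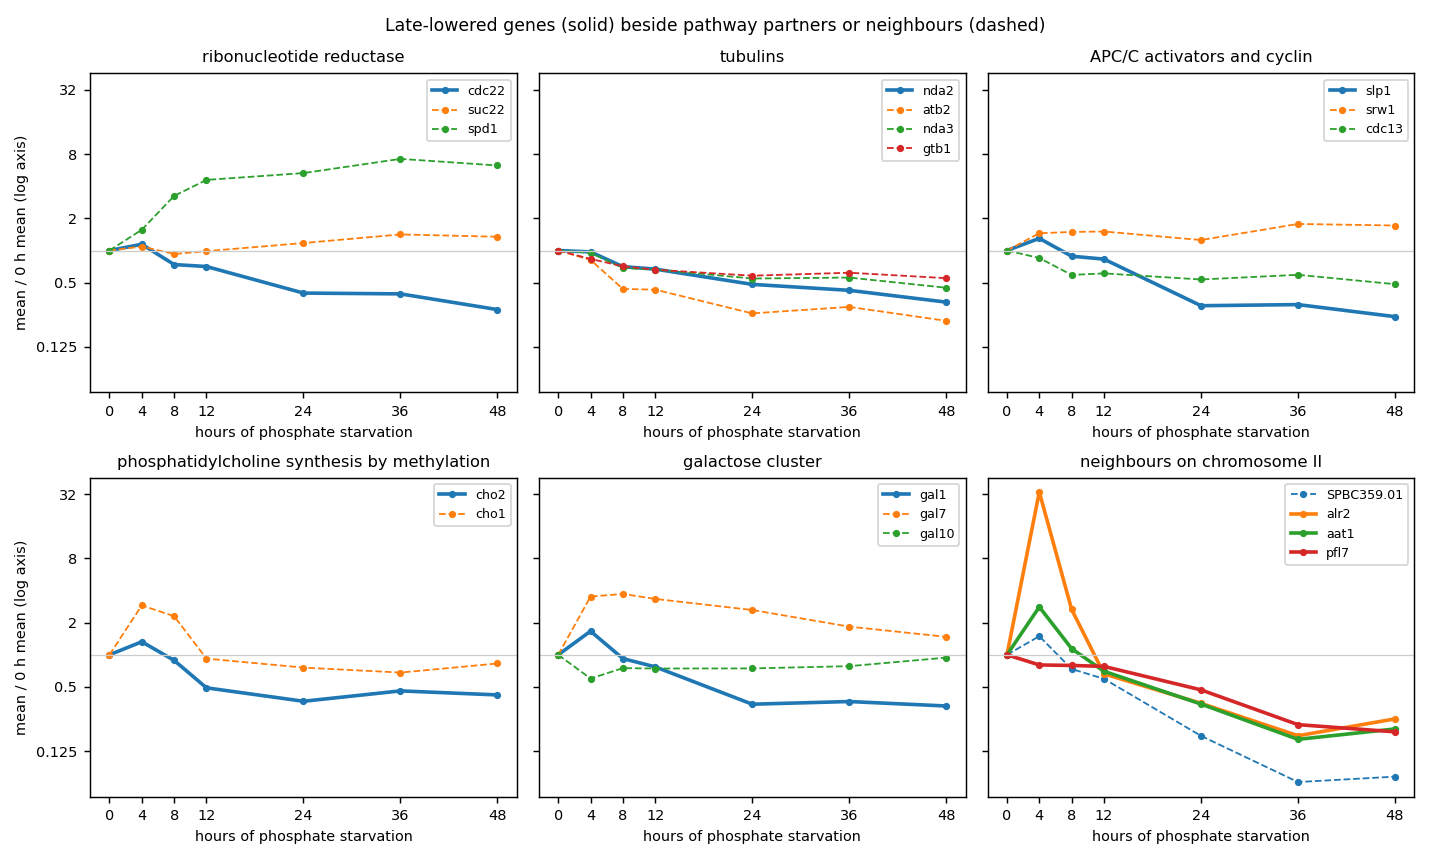
Mean normalised count divided by the 0 h mean (vertical log axis) against hours of phosphate starvation, for members (solid) and for pathway partners or neighbours outside the set (dashed). *cdc22* ends at 0.279 times with *suc22* at 1.35 and *spd1* at 6.26 times, *slp1* at 0.240 times with *srw1* at 1.72 times, and *gal1* at 0.331 times with *gal7* at 1.47 times.

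The other 7 members had regulatory or unknown roles. *atf31*, a DNA-binding transcription factor, had the lowest 0 h mean of the members, with means of 163, 169, 194, 165, 80.4, 65.7 and 57.04. Its libraries of 149, 162 and 177 at 0 h overlapped those of 132, 162 and 201 at 12 h, and those of 61.0, 76.3 and 104 at 24 h lay under both. *ubp10*, a ubiquitin hydrolase, had 949, 857, 703, 647, 459, 368 and 391. *bag102*, a BAG regulator of Hsp70 chaperones, had 2858, 2220, 2138, 1949, 1389, 1347 and 1257, and the related *bag101* ended at 0.583 times, where *bag102* was at 0.440 times.

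*wbp4*, a WW domain-binding protein, is divergent from and adjacent to *swd2* on chromosome II. Its means were 585, 487, 457, 349, 284, 285 and 289, and its normalised counts were 546, 586 and 623 in the 0 h libraries, 330, 334 and 381 in those of 12 h and 280, 284 and 289 in those of 24 h. These did not overlap, whereas the libraries of 24, 36 and 48 h did. The uncharacterized gene SPAC57A10.07 had 2071, 1635, 1469, 1122, 809, 868 and 829, and SPCC306.11 had 3590, 4150, 3038, 2787, 1346, 1459 and 1569. *dhm2*, the shortest member with 285 coding bases, had 1967, 1576, 1402, 1098, 982, 826 and 900.

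Early peaks were a feature of some members. At least 1.5 times the 0 h mean at 4 h were 7 of 41 (*rid1*, *alr2*, *aat1*, *cfh4*, SPBC800.11, *gal1* and *put1*), against 20.1% of all genes, and at least 1.5-fold lower at 8 h than at 4 h were 7 (*mpd1*, *cdc22*, *gpt2*, *alr2*, *aat1*, *gal1* and *put1*), against 13.3%. Both counts were near the background. Within the late phase, 5 members were at least 1.5-fold lower at 48 h than at 24 h (*aat1*, *pfl7*, SPBC800.11, *fet4* and *ams2*), where the share of all genes was 4.04%, and 0 were at least 1.5-fold higher, where it was 2.13%. Both means were used by the rule, whose late limit left room for a 1.5-fold rise in *slp1* alone, so nothing is read from these counts. Without the 24 h library of lowest size factor, *fet4* was at 0.716 times and *atf31* at 0.633 times its 24 h level, so that *atf31* joined the 5 and *fet4* left. Without the one of highest size factor *alr2* joined and *ams2* left.

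The ranges of the 3 libraries at 2 times could be compared for the members rebuilt at both. These libraries make up the means by which the members were chosen, except at 12 h, so the counts describe the members and are no separate support. Every 12 h library lay under every 0 h library in 5 of 8 members (*alg10*, *swd2*, *wbp4*, *pfl7* and *fet4*), against 26.0% of 496 genes. Every 12 h library lay under every 8 h library in 6 of 10 members (*mpd1*, *ypf1*, *alg10*, *wbp4*, *alr2* and *fet4*), where the share was 13.2% of 668 genes. For 48 h under 24 h the count was 8 of 25 members (*slp1*, *rid1*, *aat1*, *pfl7*, *ubp10*, SPBC800.11, *fet4* and *ams2*), where the share was 20.3% of 966 genes. For 48 h above 24 h it was 0 of 25, with a share of 11.7%, and the late limit restricted such a rise.

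The members were spread over the genome, with 15 on chromosome I, 18 on II and 8 on III. Their coding lengths ran from 285 to 4410 bases with a median of 1341, and 31 of 41 had 1 coding exon. An overlapping gene listed in the files was annotated for 26 members, on the opposite strand for 24 of them. Whether reads were counted by strand is not stated, and the values of such pairs may therefore not be separate. Of the 17 protein-coding genes that overlap a member on the opposite strand, 8 were above their 0 h mean at 48 h, against 40.3% of all genes. At least 1.5 times the 0 h mean were 5 (the partners of *dhm2*, *erj5*, SPAC57A10.07, *otg1* and *swd2*), against 23.3%, and at or under 0.5 times was 1, against 22.8%.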

How the data were processed

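Poly(A)+ RNA from 21 samples (7 times, 3 replicates each, grouped by their labels) was sequenced from stranded libraries. The submitters' processing notes name HISAT2 2.1.0, SAMtools, HTSeq 0.10.0, DESeq2 and the ASM294v2 genome for mapping, counting and normalisation. The deposited tables hold, as signal, the authors' mean normalised count per time point (read counts divided by size factors, averaged over replicates). They also hold the authors' comparisons with 0 h (log2 fold changes, errors, statistics and p-values) and an overall mean, which were not used. Folds are ratios of these means, with no test. Single libraries were not read from a table but rebuilt, as follows.

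Whole reads per library were rebuilt from the deposited means under 1000, accepting a mean only if 1 set of counts matched its 10 digits with each library within 2-fold of the mean (5-fold under 300). On simulated data 528 of 560 means gave a single set, and 0 of these were wrong. The simulated means were made with the same size factors that decoded them, and the 2-fold window was used throughout. Errors in the estimated size factors and the 5-fold window were therefore not tested. The plan had been to test rebuilt reads with limma if 90% of genes were rebuilt at all times. Only 355 of 4799 (7.40%) were, so no test was run.

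The members and lists were chosen with earlier results of these data known. Partner genes were chosen after the members were known, by their roles. Genes named in the text are all the members, the genes nearest to each limit, genes of the lists, and partners. Names, neighbours and promoters come from RefSeq on ASM294v3, to which 6848 of 6988 identifiers matched. The authors used an older build, so no coordinates are given. Calculations used Python 3.11.15, pandas 2.3.3 and NumPy 2.4.6. Alternatives were other limits, 2 rescalings, other promoter windows and leaving out libraries. 1 gene and the results that need it are not reported here.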

Additional observations from a re-analysis of the deposited data

How the results depend on the processing

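The number of genes that met the rule was 84 with an early minimum of 0.6 and 17 with 0.8, and 11 with a late maximum of 0.4 and 94 with 0.6. It was 42 and 40 with a 0 h minimum of 50 and 300, 46 with none left out by name, and 34 and 56 after rescaling to the median gene and to equal totals. The number of members at or under 0.7 times the 0 h mean at 12 h, 26, was 12 after rescaling to the median gene, 3 after rescaling to equal totals, 12 with a limit of 0.6 and 34 with 0.8 (alternatives chosen after seeing the data). The number 1.5-fold lower at 48 h than at 24 h stayed at 5 under both rescalings. It was also 5 without the 24 h library of lowest, middle or highest size factor, where 4, 5 and 4 genes were shared with the full count. With only the 250 bases before the gene start searched, 4 members kept the MCB box, and the stress box was in 1 member instead of 3. The count of members in each gene list was the same without a minimum on the 0 h mean.

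When each rebuilt library at 0 h or 12 h was left out in turn, the 12 h ratio was 0.546 to 0.753 for *alr2*, 0.592 to 0.657 for *fet4*, 0.905 to 1.11 for *atf31* and 1.47 to 1.60 for SPBC800.11. The alternatives to the limma tests (another pseudocount, no filter, median centring, voom, 2-group fits and leaving out libraries) were not run, since the tests themselves were not. No paired analysis was possible because the mean columns carry no replicate numbers. For the 16 members with no rebuilt library, for all means above 1000 and for lower means that could not be rebuilt, the spread between replicates is unknown here.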
